A study of Mus musculus with 7 samples.

Results

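The endoplasmic reticulum (ER) stress and unfolded protein response genes described here are 33 genes, chosen by symbol, of which 32 had a probe set annotated to that gene alone, among 22180 genes in all. Pdia4 had none and is not analysed here. By role they were 15 chaperones and folding enzymes (14 measured), 5 genes of ER-associated degradation (ERAD), 10 of the PERK arm, 2 of the IRE1 arm and Atf6 itself. Expression was measured as log2 signal on 7 whole-transcript arrays of mouse pancreatic islets isolated with collagenase. For the 3 control arrays the mice were Gata6 flox/flox and had no Cre. For the 4 arrays labelled Gata6 KO they were Gata6 flox/flox;Pdx1-Cre, and in these the Pdx1 promoter drives Cre in the pancreatic epithelium. Both groups thus share the floxed alleles, and an effect of Cre cannot be told apart from one of Gata6. The islets of 3 mice, 2 months old, were pooled for every array, and a replicate is such a pool. The number of arrays limits the precision.

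The unfolded protein response adjusts the folding capacity of the ER to its load of secretory proteins. PERK (gene Eif2ak3) phosphorylates the initiation factor eIF2α, which slows translation and favours synthesis of the transcription factor ATF4. IRE1 (gene Ern1) splices the mRNA of XBP1, and ATF6 is cut in the Golgi to release a transcription factor, and both factors raise chaperone and ERAD genes. Beta cells and acinar cells, which make large amounts of secreted protein, both depend on this response.

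The Gata6 signal went against the labels. It measured 4.60, 4.80 and 4.83 in control islets against 5.41, 5.35, 5.34 and 5.01 under the Gata6 KO label, a difference that did not pass the test (limma, Benjamini-Hochberg adjusted p = 0.0622). The floxed exons and the positions of the probes are not given in the sources used here, so this probe set may check nothing, and every direction below is that of the labels. Differences are log2 signal of the arrays labelled Gata6 KO minus control, relative to the median difference of all genes (0.17), with the moderated SE and p of the unshifted difference. Over all genes 24.7% passed the test at an adjusted p under 0.05, 17.4% higher and 7.36% lower. After centring each array on its median, 40.3% of the genes that passed were higher, against 70.2% before. Hormone-cell markers had lower signal under the Gata6 KO label, with 10 of 10 for beta cells, 3 of 3 measured for alpha cells and 4 of 5 for delta and PP cells past the test. The beta-cell list averaged 8.51 to 9.07 on control arrays, against 5.37 to 6.99 on the others. The lists of acinar, mesenchymal, and lymphoid and plasma cell markers were higher in 10 of 17, 6 of 7 and 5 of 10 genes, and none of their genes was lower. The acinar mean was 10.04 to 10.14 on the control arrays, where the acinar protease genes Ctrb1 and Cela1 were near 13, so the samples carried acinar RNA in both groups. Ductal (1 higher and 1 lower of 5), endothelial (4 lower of 6) and macrophage lists (2 higher of 7) were also measured. In such bulk samples, fewer cells of a type and less RNA per cell cannot be told apart.

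The promoters of the listed genes hold sequence elements through which the response is known to act, and some are shown here so that genes with the same element can be set side by side. RefSeq promoter windows of 300 bases (250 before and 50 after the start, assembly GRCm38.p6) were found for 30 of the 33 genes, all but Hyou1, Manf and Atf6. The ER stress response element ERSE, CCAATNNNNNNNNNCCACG, is bound by ATF6 together with NF-Y. It was searched on both strands, as were its relative ERSE-II (the second run of capitals in Herpud1 below), the XBP1 element core UPRE (TGACGTGG) and the ATF4 element CARE (TGATGNAA). None of the matches in the 30 genes overlapped another. ERSE stood in 9 of the 30 genes and in 0.137% of the 27025 genes of the genome with a window. ERSE-II stood in 2 of the 30 (0.0444% of genes), CARE in 6 (4.51% of genes), and UPRE in 0 (0.714% of genes). A match is a description of these letters and not a measured binding site. In the 200 bases before the start below, motifs are in capitals.

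Hspa5 (chr2:34771890-34772089, plus strand): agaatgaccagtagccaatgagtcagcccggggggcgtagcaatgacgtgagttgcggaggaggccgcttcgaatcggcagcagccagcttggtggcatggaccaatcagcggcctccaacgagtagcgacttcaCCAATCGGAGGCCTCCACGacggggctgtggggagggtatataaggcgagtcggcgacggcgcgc
Dnajc3 (chr14:118937732-118937931, plus strand): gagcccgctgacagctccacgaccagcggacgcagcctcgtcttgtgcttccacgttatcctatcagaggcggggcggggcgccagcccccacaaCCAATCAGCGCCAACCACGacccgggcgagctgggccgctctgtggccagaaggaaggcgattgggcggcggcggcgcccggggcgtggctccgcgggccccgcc
Pdia6 (chr12:17266389-17266588, plus strand): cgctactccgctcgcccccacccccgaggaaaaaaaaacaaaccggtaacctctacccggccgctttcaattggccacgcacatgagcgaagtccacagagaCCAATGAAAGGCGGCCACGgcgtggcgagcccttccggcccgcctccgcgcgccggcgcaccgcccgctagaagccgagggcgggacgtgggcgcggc
Herpud1 (chr8:94386229-94386428, plus strand): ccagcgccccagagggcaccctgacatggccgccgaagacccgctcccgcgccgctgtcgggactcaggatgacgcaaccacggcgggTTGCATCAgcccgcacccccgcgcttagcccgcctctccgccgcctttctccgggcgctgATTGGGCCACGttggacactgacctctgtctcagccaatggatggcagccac
Nupr1 (chr7:126625471-126625670, minus strand): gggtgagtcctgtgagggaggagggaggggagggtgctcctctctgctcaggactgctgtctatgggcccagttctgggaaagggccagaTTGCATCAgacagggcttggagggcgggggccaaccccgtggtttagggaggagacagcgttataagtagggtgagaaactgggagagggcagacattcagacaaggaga
Atf3 (chr1:191183334-191183533, minus strand): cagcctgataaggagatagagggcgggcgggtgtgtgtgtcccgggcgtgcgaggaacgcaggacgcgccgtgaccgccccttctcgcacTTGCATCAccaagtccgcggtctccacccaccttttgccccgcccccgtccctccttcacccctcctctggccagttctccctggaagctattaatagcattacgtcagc

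The capitals in Hspa5, Dnajc3 and Pdia6 are ERSE, which begins 65, 105 and 98 bases before the start. Of these 3 genes Dnajc3 and Pdia6 rose and Hspa5 did not pass the test. The 9 genes with ERSE were Hspa5, Hsp90b1, Dnajc3, Calr, Canx, Pdia6, Creld2, Syvn1 and Derl3. Of these 2 rose, 0 fell and 7 did not pass, with differences from -0.51 to 0.79 and a median of 0.03. Over all genes on the arrays 17.4% rose and 7.36% fell. In Herpud1 the capitals are a CARE on the opposite strand and then ERSE-II, 112 and 52 bases before the start. Nupr1 and Atf3 each hold a CARE on the opposite strand, with its leftmost base 110 bases before the start. Nupr1 rose and Atf3 fell. The other 4 genes with CARE (Herpud1, Trib3, Chac1 and Asns) did not pass the test.

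Control and Cre-carrying islets were compared gene by gene. Of the 32 measured genes 7 rose (Dnajc3, Pdia6, Manf, Fkbp11, Edem1, Eif2ak3 and Nupr1) and 4 fell (Atf4, Atf3, Ppp1r15a and Sesn2). The shares were 21.9% higher against 17.4% of all genes, and 12.5% lower against 7.36%, and the median difference was -0.07 against 0 for all genes by definition. After centring each array on its median 7 rose and 7 fell, while of all genes 4639 passed, 40.3% of them higher. The genes that rose were folding and degradation genes, PERK and Nupr1, and each of the 4 that fell belongs to the PERK arm. For 17 of the 32 the groups were fully apart, in 11 towards higher and in 6 towards lower signal (34.3% of all genes did not overlap, 24.4% higher and 9.96% lower). The exact two-sided permutation test over the 35 splits of 7 arrays gave its smallest possible p of 0.0286 for 14 of the 32 (43.8%, against 22.0% of all genes), the 11 that passed limma's test and Creld2, Chac1 and Ern1. The other 21 genes did not pass limma's test, and 5 of them had an adjusted p between 0.05 and 0.1 (Canx, Sel1l, Asns, Chac1 and Ern1).

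**Figure D1:**
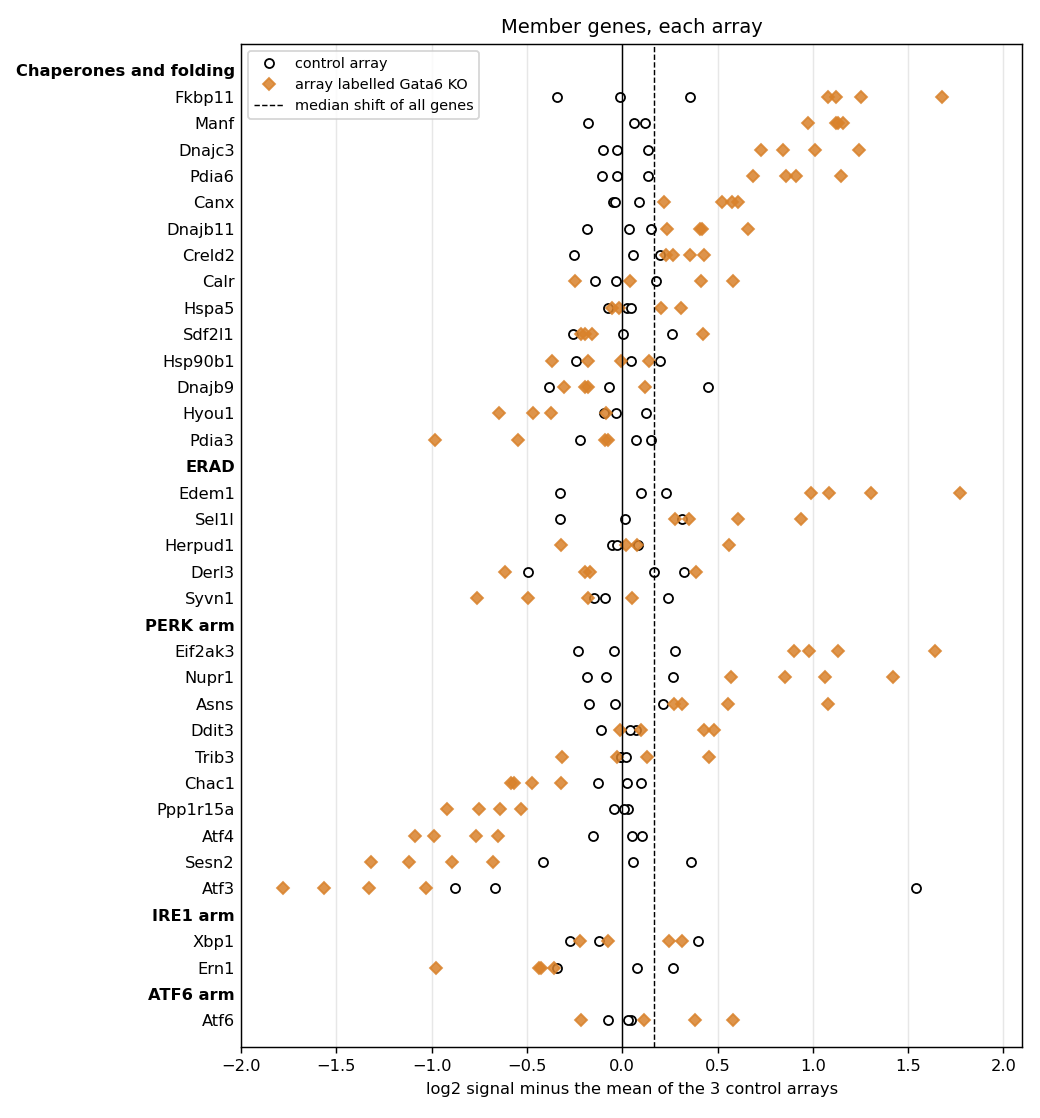
Each row is 1 gene and each symbol 1 array, plotted as its log2 signal minus the mean of the 3 control arrays, by role in the response. The 4 arrays labelled Gata6 KO (diamonds) lie to the right of all 3 control arrays (circles) for genes such as Fkbp11, Manf, Edem1 and Eif2ak3 and to the left for Atf4, Sesn2 and Ppp1r15a, while they overlap for Hspa5, Hsp90b1 and Xbp1.

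Among the chaperones and folding enzymes 4 of 14 rose (28.6%, against 17.4% of all genes) and 0 fell (against 7.36%). Fkbp11, a peptidyl-prolyl isomerase of secretory cells, measured 7.31, 8.01 and 7.64 on the control arrays, against 8.90, 8.77, 8.73 and 9.33 on the arrays labelled Gata6 KO. Every array labelled Gata6 KO was above every control array, and the difference of 1.12 (SE 0.22, limma adjusted p = 8.35e-04) was 2.17-fold. Manf encodes a secreted neurotrophic factor that resides in the ER and supports beta-cell survival. Its signal was 3.36, 3.06 and 3.30 in control islets, against 4.39, 4.36, 4.37 and 4.22. The arrays within each group lay close together at a low signal, and no detection calls were used. Manf rose by 0.93 (SE 0.20, limma adjusted p = 0.00128).

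Dnajc3 encodes a co-chaperone of BiP, also known as an inhibitor of PERK, and its loss causes diabetes in mice. It measured 8.13, 8.20 and 8.36 on the control arrays, against 9.47, 9.07, 8.96 and 9.24 on the arrays labelled Gata6 KO, a rise of 0.79 (SE 0.19, limma adjusted p = 0.00221). Pdia6, a protein disulfide isomerase, measured 8.44, 8.20 and 8.28 against 9.45, 9.16, 8.99 and 9.22. It rose by 0.74 (SE 0.18, limma adjusted p = 0.00272), and its groups did not overlap. These 4 calls held under all 18 alternatives of processing and left-out arrays.

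The main chaperones of the ER lumen did not pass the test. Hspa5, which encodes the Hsp70 chaperone BiP that holds the stress sensors inactive, measured 7.05, 7.07 and 6.95 on the control arrays, against 7.23, 7.33, 6.97 and 7.01 on the arrays labelled Gata6 KO. Arrays 1 and 2 labelled Gata6 KO lay above the controls and arrays 3 and 4 among them. The difference was -0.05, with a 95% interval from -0.45 to 0.34. Hsp90b1 (GRP94, the Hsp90 chaperone of the ER) differed by -0.27, with an interval from -0.67 to 0.14. Its signal of 9.82, 9.67 and 9.38 on the control arrays overlapped that on the others (9.77, 9.62, 9.45 and 9.26).

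None of the 3 listed genes of the calnexin cycle passed the test. Canx, which encodes the membrane lectin calnexin, was above the control range (8.41 to 8.55) on all 4 arrays labelled Gata6 KO, at 9.07, 9.04, 8.68 and 8.98. Its difference of 0.32 (SE 0.18) did not pass (limma adjusted p = 0.0614), and it passed without the array labelled Gata6 KO 3 (limma adjusted p = 0.0290). Its soluble counterpart Calr (calreticulin) differed by 0.03, with an interval from -0.43 to 0.49. Pdia3, the disulfide isomerase that works with both lectins, measured 8.30, 8.38 and 8.01 on the control arrays against 8.16, 8.14, 7.69 and 7.25 on the others. The array labelled Gata6 KO 4 was the lowest of these, and the difference of -0.59 (SE 0.23) did not pass (limma adjusted p = 0.207). It was -0.37 without that array and -0.79 after a repeated quantile normalization, where it passed (limma adjusted p = 0.0139).

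The remaining chaperone genes did not pass either. The differences were 0.26 for the BiP co-chaperone Dnajb11, -0.31 for the co-chaperone Dnajb9 and -0.20 for Sdf2l1, a partner of Dnajb11. Single arrays moved these, to -0.07 for Dnajb9 without control array 1 and -0.07 for Sdf2l1 without control array 2. Creld2, an ER protein with disulfide isomerase activity, was higher on every array labelled Gata6 KO (7.25 to 7.45) than on every control array (6.77 to 7.22), with a difference of 0.15 once the shift of all genes was taken off. Hyou1 (GRP170), which exchanges the nucleotide of BiP, measured 8.74, 8.59 and 8.52 on the control arrays against 8.24, 8.53, 7.97 and 8.15 on the others. Its difference of -0.56 (SE 0.19, limma adjusted p = 0.142) passed after centring each array (limma adjusted p = 0.0424).

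Means of the acinar and of the lymphoid and plasma cell marker lists were higher on the same arrays as these folding genes. Acinar and plasma cells are rich in ER, while much of the second list marks other lymphocytes. The acinar list mean was 10.91 to 11.04 on the arrays labelled Gata6 KO, against 10.04 to 10.14 on the controls. The lymphoid and plasma cell mean was 2.88 to 3.70 against 1.90 to 2.14. The most abundant markers of both lists did not pass, while 10 of 17 acinar and 5 of 10 lymphoid and plasma cell genes rose. The differences of these most abundant markers were -0.11 for Ctrb1, -0.14 for Cela1, 0.18 for the plasma cell regulator Prdm1 and 0.90 for the B-cell receptor component Cd79a. Over the whole acinar list they ran from -0.14 to 2.66, with a median of 0.77. Over the lymphoid and plasma cell list they ran from 0.18 to 1.76, with a median of 1.06. Ctrb1 and Cela1 had the highest mean signals of all genes, and whether a signal that high can still rise was not tested. The mesenchymal list was also higher, at 3.49 to 5.58 against 2.69 to 3.48. The part of these cells in the rise of the folding genes was not tested. The acinar list means did not overlap between the groups, so acinar content and genotype cannot be told apart.

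**Figure D2:**
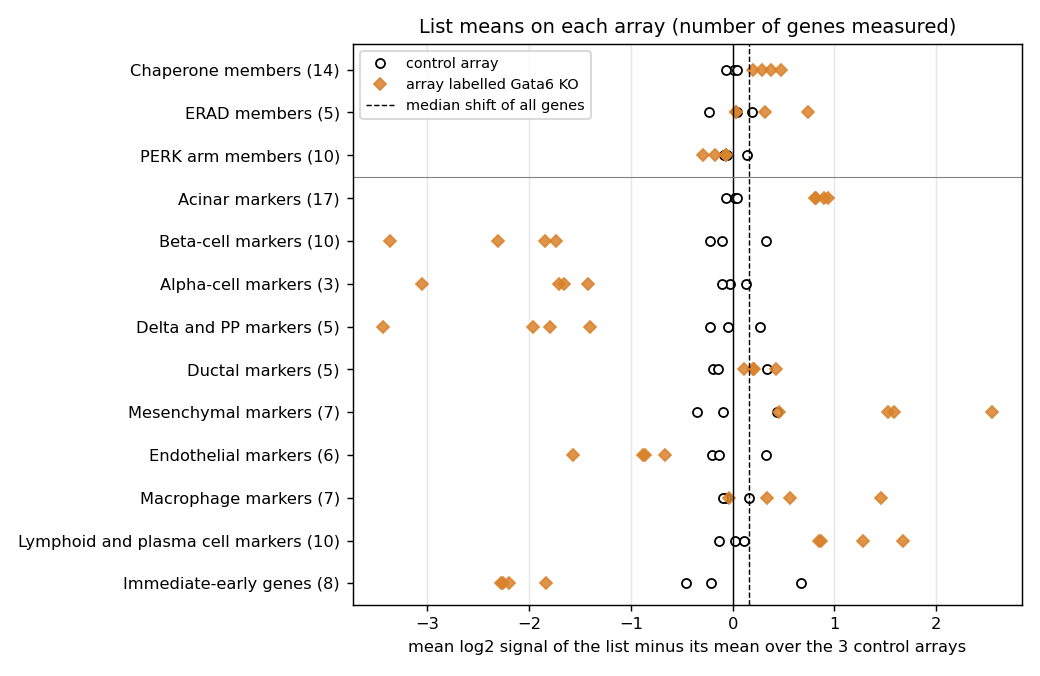
Each row is a gene list, with the number of genes measured, and each symbol is the mean log2 signal of the list on 1 array minus its mean over the 3 control arrays. The 4 arrays labelled Gata6 KO (diamonds) lie above all control arrays (circles) for the acinar, mesenchymal, and lymphoid and plasma cell markers. They lie below them for the beta, alpha, delta and PP, endothelial and immediate-early lists. The member lists move by less. The chaperone members also lie above all control arrays (means of 7.81 to 8.08 against 7.55 to 7.65, with the shift of all genes not taken off). The ERAD and PERK arm members overlap.

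In ERAD, which moves misfolded proteins to the cytosol for degradation, 1 of 5 genes rose and 0 fell. The share that rose, 20%, was near the 17.4% of all genes, of which 7.36% fell. Edem1 encodes a lectin that recognises misfolded glycoproteins with trimmed mannoses. It measured 6.94, 7.50 and 7.36 on the control arrays, against 8.57, 8.35, 8.25 and 9.04 on the arrays labelled Gata6 KO, and rose by 1.12 (SE 0.22, limma adjusted p = 0.00107). A dimmer probe set of Edem1 also had a higher mean on the arrays labelled Gata6 KO (2.67 against 2.18). The mean of both probe sets passed as well, with a difference of 0.72.

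Sel1l and Syvn1 encode the adaptor and the ubiquitin ligase of the Hrd1 complex. Sel1l measured 8.81, 9.15 and 9.46 on the control arrays, against 9.75, 9.49, 9.42 and 10.08 on the arrays labelled Gata6 KO, a difference of 0.38 that did not pass (limma adjusted p = 0.0770). It was 0.22 without control array 1, and 0.61 on the 5 arrays of high Xist signal, where it passed (limma adjusted p = 0.0381). Syvn1 differed in the other direction, by -0.51 (SE 0.23), and did not pass either (limma adjusted p = 0.285). The groups overlapped for both genes. Herpud1, a scaffold of the same complex, differed by -0.08 and Derl3, a derlin of secretory cells, by -0.31. Derl3 varied as much within the groups (6.98 to 7.79 on the control arrays, 6.85 to 7.86 on the others) as between them.

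The PERK arm held genes of both directions, with 2 of 10 higher and 4 lower. These are 20% higher, near the 17.4% of all genes, and 40% lower, against 7.36%. Eif2ak3, which encodes PERK, measured 5.41, 5.61 and 5.92 on the control arrays, against 7.29, 6.78, 6.63 and 6.55 on the arrays labelled Gata6 KO. It rose by 1.00 (SE 0.23, limma adjusted p = 0.00220), and its groups did not overlap. Nupr1, a stress-induced transcriptional cofactor that is abundant in the exocrine pancreas under stress, measured 8.56, 8.67 and 9.01 against 10.17, 9.81, 9.32 and 9.60. It rose by 0.81 (SE 0.22, limma adjusted p = 0.00500).

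Atf4, the transcription factor that acts downstream of PERK, fell. It measured 6.26, 6.21 and 6.0 on the control arrays, against 5.39, 5.17, 5.50 and 5.07 on the arrays labelled Gata6 KO, a difference of -1.04 (SE 0.20, limma adjusted p = 0.00575). The groups were well apart and the call held under all 18 alternatives. ATF4 is controlled mainly through its translation, which an array does not measure. Sesn2, a stress-induced regulator of mTORC1, measured 5.09, 4.78 and 4.31 on the control arrays against 4.05, 3.83, 3.61 and 3.41 on the others. It fell by 1.17 on the log2 scale (SE 0.24, limma adjusted p = 0.00797).

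Ppp1r15a (GADD34) guides the phosphatase that reverses eIF2α phosphorylation. It measured 4.05, 3.98 and 4.03 on the control arrays, against 3.10, 3.38, 3.49 and 3.26 on the arrays labelled Gata6 KO, a difference of -0.88 (SE 0.20, limma adjusted p = 0.0186). Atf3, a transcription factor induced by many stresses, measured 6.0, 3.79 and 3.58 on the control arrays against 2.89, 3.42, 2.67 and 3.13 on the others. The control arrays were far apart, with array 1 highest, and Atf3 still lay lower on every array labelled Gata6 KO, with a difference of -1.59 (SE 0.44, limma adjusted p = 0.0311).

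Of the 4 genes that fell, 3 lost the call when control array 1 was left out. Without it, Atf4 was the 1 gene of the list that still fell. Calls were lost over all genes as well, where 3265 passed without control array 1, against 5486 with all arrays. Of these, 68.8% and 70.2% were higher. Without control array 1 the adjusted p of limma was 0.123 for Atf3, with a difference of -0.81. It was 0.0709 for Ppp1r15a, with a difference of -0.85, and 0.0576 for Sesn2, with a difference of -0.98. With all arrays the differences of Atf3, Ppp1r15a and Sesn2 were -1.59, -0.88 and -1.17. Ppp1r15a was also lost without control array 2 (limma adjusted p = 0.0583) or control array 3 (limma adjusted p = 0.0599). Atf3 also lost its call without array 1 (limma adjusted p = 0.0609) or array 3 of the Gata6 KO label (limma adjusted p = 0.0750), with robust estimation (limma adjusted p = 0.0624) and over all probe sets (limma adjusted p = 0.0978).

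Atf3 and Ppp1r15a are also known as early response genes that tissue handling can induce. Of 8 immediate-early genes measured beside them, 7 fell, among them Jun by 1.68 and the phosphatase gene Dusp1 by 1.75 on the log2 scale. That list averaged 6.67, 5.80 and 5.55 in the controls, and 3.73 to 4.17 on the arrays labelled Gata6 KO. It was highest on control array 1, as were Atf3 and Sesn2 and, by little, Atf4 and Ppp1r15a. Its part in the lower signal of the PERK arm genes was not tested. The beta-cell, alpha-cell and delta and PP cell lists were lower on the same arrays, and their part was not tested either.

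The other genes of the PERK arm did not pass. Ddit3, which encodes the pro-apoptotic factor CHOP, measured 2.90, 3.08 and 3.05 on the control arrays, against 3.11, 3.44, 3.00 and 3.49 on the arrays labelled Gata6 KO. Its difference was 0.08, with an interval from -0.37 to 0.54. Trib3, a pseudokinase induced by CHOP and ATF4, was nearly equal on the 3 control arrays (3.15 to 3.17) and ran from 2.84 to 3.61 on the others, with a difference of -0.11. Chac1, which degrades glutathione, was lower on each array labelled Gata6 KO (5.28 to 5.54) than on each control array (5.74 to 5.96). Its difference of -0.65 (SE 0.19, limma adjusted p = 0.0743) passed after centring each array (limma adjusted p = 0.0225). Asns, asparagine synthetase, was higher on each array labelled Gata6 KO (8.12 to 8.92) than on each control array (7.67 to 8.06), with a difference of 0.39 (SE 0.22, limma adjusted p = 0.0803).

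**Figure D3:**
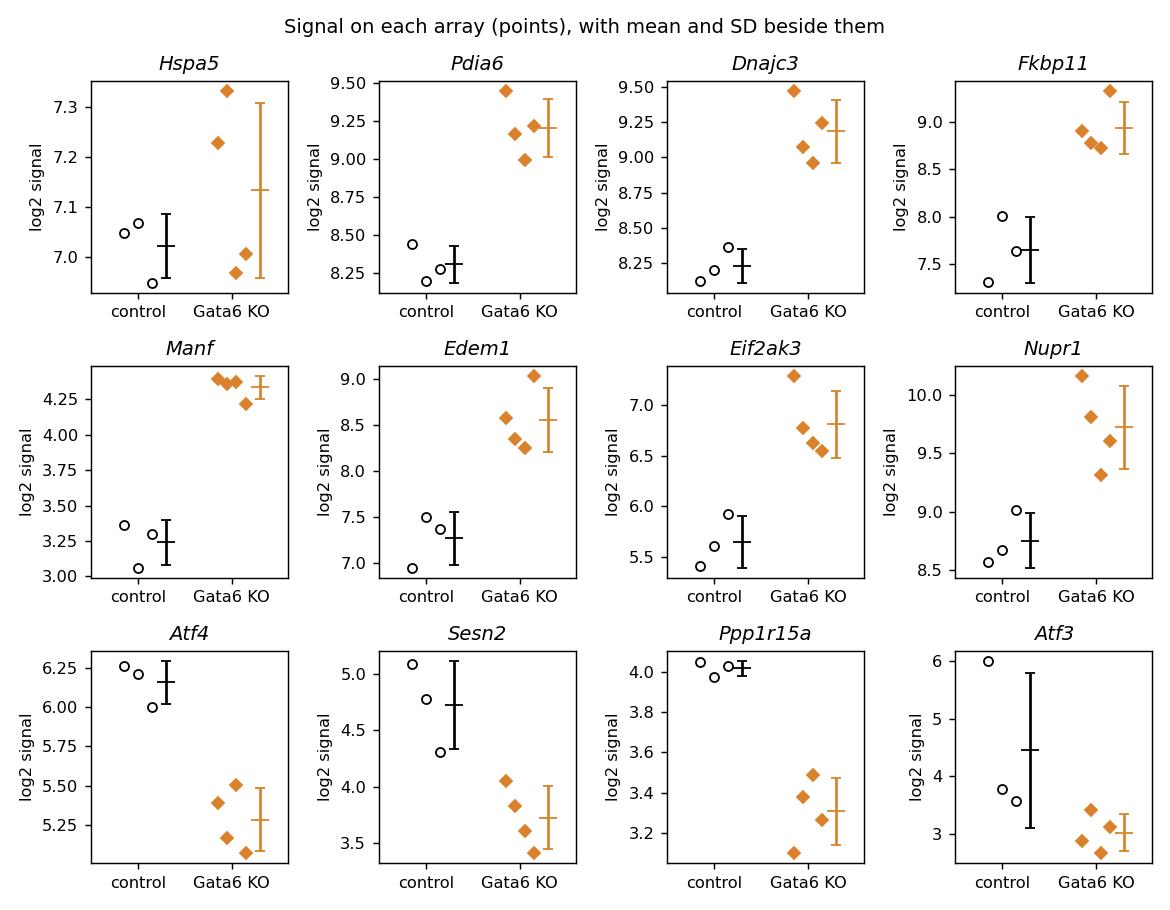
Log2 signal of 12 genes on each array, with 1 panel a gene and its own vertical scale, circles for the 3 control arrays, diamonds for the 4 arrays labelled Gata6 KO, and the mean with its SD beside the points. Pdia6, Dnajc3, Fkbp11, Manf, Edem1, Eif2ak3 and Nupr1 are higher and Atf4, Sesn2, Ppp1r15a and Atf3 lower without overlap, Hspa5 overlaps, and control array 1 of Atf3 (6.0) stands apart from the other control arrays.

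The IRE1 and ATF6 arms showed no call at the level of their sensors. Ern1, which encodes IRE1α, measured 6.28, 5.67 and 6.10 on the control arrays, against 5.66, 5.59, 5.04 and 5.58 on the arrays labelled Gata6 KO. It was lower on all 4 of these, narrowly so on array 1, and the difference of -0.72 (SE 0.23) did not pass (limma adjusted p = 0.0899) but passed after centring (limma adjusted p = 0.0330). Xbp1 measured 8.65, 8.50 and 9.17 against 9.02, 8.70, 8.55 and 9.09, a difference of -0.10 with an interval from -0.56 to 0.35. The positions of the Xbp1 probes were not used here, so spliced and unspliced mRNA cannot be told apart. Atf6 differed by 0.05 (interval from -0.42 to 0.52), with 6.40, 5.94, 5.61 and 6.20 on the arrays labelled Gata6 KO around the control values of 5.75 to 5.87.

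**Figure D4:**
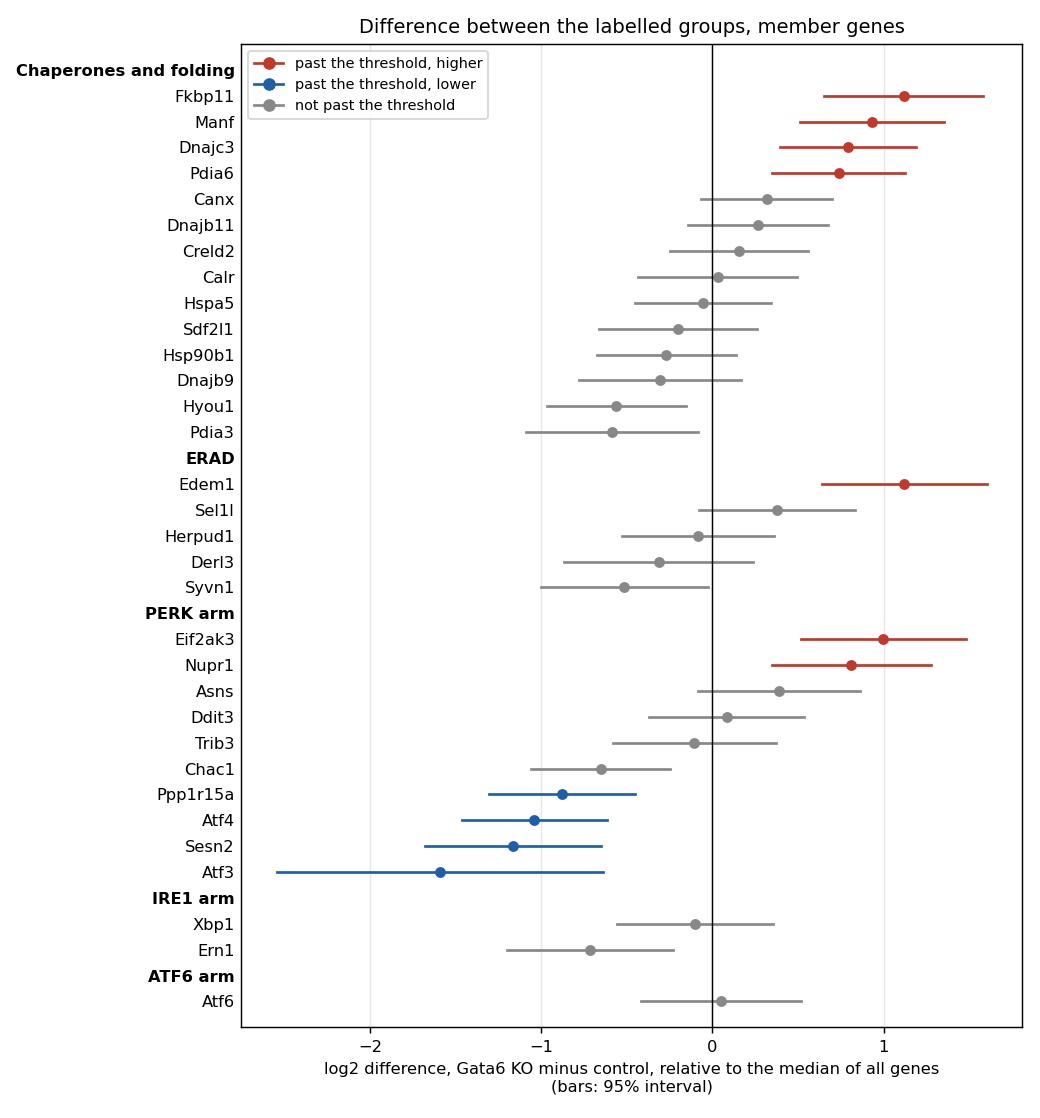
Log2 difference between the labelled groups for each gene, relative to the median of all genes, with its 95% interval from limma, coloured by whether the unshifted difference passed at an adjusted p under 0.05. The 7 genes that rose run from Pdia6 (0.74) to Edem1 (1.12) and the 4 that fell from Ppp1r15a (-0.88) to Atf3 (-1.59), and 5 grey intervals (Hyou1, Pdia3, Syvn1, Chac1 and Ern1) leave out 0 without passing the test.

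The median spread within a group was larger on the arrays labelled Gata6 KO. The SD over the 32 genes had a median of 0.20 on the 3 control arrays and 0.28 on the 4 arrays labelled Gata6 KO. Atf3 on the control arrays (1.34) was the only SD above 0.5. Among the arrays labelled Gata6 KO, array 3 was the lowest for 20 of the 32 genes and array 1 the highest for 14. Array 3 also had the lowest beta-cell list mean (5.37). Xist signal was low on it (2.15) and on control array 3 (1.34), against 5.02 to 5.60 on the other 5 arrays. Xist is transcribed from the inactive X chromosome of females. On those 5 arrays alone, 8 of the 32 genes were higher and 3 lower, while of all genes 3337 passed, 66.9% of them higher.

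A further list held 86 genes of the same pathway, of which 78 were measured. Of these 20 rose (25.6%, against 17.4% of all genes) and 6 fell (7.69%, against 7.36%). Their median difference was 0.07. Of the 21 other chaperones and folding enzymes 7 rose and 1 fell. Ppib (cyclophilin B, a prolyl isomerase of the ER) rose by 1.25 (SE 0.19), from 7.53, 7.87 and 7.89 to 9.28, 9.16, 8.92 and 9.38. The disulfide isomerase P4hb, its relative Erp44 and the prolyl isomerase Fkbp2 rose by 0.81, 0.89 and 0.80. Of the 20 other ERAD genes 7 rose and 1 fell. Derl1 and Derl2, relatives of Derl3, rose by 1.44 and 0.69, and Edem2 and Edem3, relatives of Edem1, by 1.23 and 0.78. Derl1 had a signal of 5.85, 5.58 and 5.43 in control islets against 7.35, 7.05, 7.20 and 7.32 on the others, so its groups were far apart. After centring each array 13 of the 78 rose and 10 fell, while of all genes 4639 passed, 40.3% of them higher.

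Of the 21 other genes of the PERK arm and amino acid response 4 rose and 1 fell. These are 19% and 4.76%, against 17.4% and 7.36% of all genes. Phgdh and Psat1, enzymes of serine synthesis, rose by 1.02 (SE 0.20) and 0.93 (SE 0.20), and Slc7a11, the cystine transporter, by 0.94 (SE 0.23) at a low signal. These 3 are known ATF4 targets, as is Atf5, which fell by 1.45 on the log2 scale (SE 0.23), from 6.80, 6.88 and 6.91 to 5.43, 5.09, 5.77 and 6.04. Of 7 other IRE1 genes 2 rose, Tmbim6, an ER membrane protein that restrains IRE1, by 0.91 and the kinase Mapk8 (JNK1) by 0.69. The RNA ligase Rtcb, which joins spliced Xbp1, and the kinase Map3k5 differed by 0.34 and 0.21 and did not pass. Of 9 genes around ATF6 and its CREB3 relatives 0 rose and 3 fell. Wfs1, the ER protein lost in Wolfram syndrome, which restrains ATF6 and is abundant in beta cells, fell by 1.46 on the log2 scale (SE 0.23). Creb3l2, a relative of ATF6 that is cut in the same way, fell by 1.32, and Atf6b fell by 0.99, a call lost without control array 2 or 3. On the 5 arrays of high Xist signal the calls of Atf6b, Derl2 and Mapk8 were lost. Mbtps2, the protease that makes the second cut in ATF6, differed by 0.42 and did not pass (limma adjusted p = 0.0573).

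**Figure D5:**
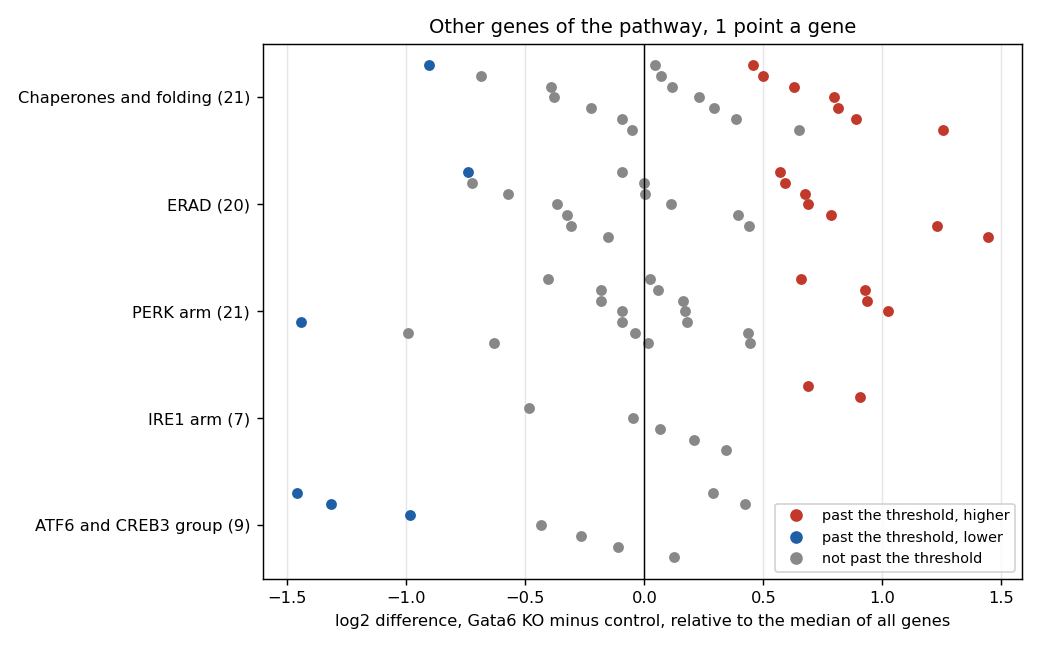
Each point is 1 of the 78 other genes of the pathway, at its log2 difference between the labelled groups relative to the median of all genes, by role and coloured by whether it passed at an adjusted p under 0.05 (vertical offsets only separate points). Chaperone and ERAD genes past the threshold lie mostly to the right (7 higher and 1 lower in each), and the 3 genes past the threshold in the ATF6 and CREB3 group lie to the left. Of all genes past the threshold, 70.2% were higher.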

How the data were processed

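The log2 values of 41345 probe sets on 7 arrays (3 control, 4 labelled Gata6 KO) are RMA values as the authors deposited them. The submitters' processing notes name RMA and the Transcriptome Analysis Console but no version, and the log base follows from RMA. The authors' genome build was not given in the sources used here. No detection calls were used.

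Gene names came from the platform annotation, in which 23521 probe sets had 1 symbol. Per gene the probe set with the highest mean was used, which left 22180 genes. The test was that of limma 3.58.1 under R 4.3.3 (lmFit, eBayes with trend, two-sided, no covariate), with Benjamini-Hochberg adjustment over all genes at 0.05. The code was tested on simulated data. The median difference of all genes was 0.17 and is subtracted from the differences. Older list symbols were matched through RefSeq gene identifiers, and promoters came from RefSeq GRCm38.p6. Figures used matplotlib 3.10.9.

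The genes and lists were chosen with earlier results of these data known. Named are all 32 measured genes, up to 4 of each further list by p, and the most abundant markers. Alternatives covered scaling, a filter, probe sets, variance models, array weights, Xist, a replicate block and each array left out. The use of arrays with high Xist alone was added after the data were seen.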

Additional observations from a re-analysis of the deposited data

Results flagged for a closer look

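Of 74 named genes tested on the 4 arrays labelled Gata6 KO, 7 had 1 array far from the other 3, by a rule that chance meets in about 1 of 20 groups. Sdf2l1 measured 8.22 on array 4, against 7.58 to 7.63 on the other 3. Ern1 measured 5.04 on array 3, below 5.58 to 5.66, and the ER disulfide isomerase gene Erp44 measured 6.42 on array 3, below 6.62 to 6.65. The serine synthesis gene Psat1 measured 5.26 on array 4, although the other 3 arrays were all at 5.31, so that its gap is small in size. The glucagon gene Gcg measured 6.85 on array 3, far below 10.31 to 10.55. Gata6 measured 5.01 on array 4, and Xist measured 2.15 on array 3.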

How the results depend on the processing

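The 7 genes that rose and Atf4 passed the test under all 18 alternatives, while 3 genes that fell (Atf3, Ppp1r15a and Sesn2) were lost under at least 1. Of the 21 genes not called, 6 passed under at least 1 alternative and 15 under none. The count of listed genes that fell went from 4 to 7 after centring each array and to 8 after a repeated quantile normalization. It ranged from 1 to 4 with an array left out. The count of listed genes that rose stayed between 7 and 8. The balance over all genes moved as well. Of all genes that passed, 70.2% were higher in the main test, 40.3% after centring and 49.6% after quantile normalization. Of the further pathway genes 13 rose and 10 fell after centring, and 3 to 6 fell with an array left out. Over all genes 3265 to 5613 passed with an array left out, lowest without control array 1 (3265) and 2 (3586), and 3337 on the arrays of high Xist alone.

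Some genes, none of them called, changed sign, and the cause was not tested. Those of the ER stress list were near 0 in the main test, while the marker C1qb was at -0.40. Hspa5 was 0.015 with the replicate block and between -0.13 and 0.015 with an array left out. Calr was -0.12 after quantile normalization, -0.0040 without the 40% of genes of lowest mean and between -0.11 and 0.21 with an array left out. The ranges with an array left out were -0.22 to 0.041 for Herpud1, -0.25 to 0.020 for Trib3, -0.24 to 0.085 for Xbp1, -0.084 to 0.19 for Atf6 and -0.88 to 0.064 for the macrophage gene C1qb. On the arrays of high Xist alone Trib3 was 0.016 and Xbp1 0.18. Atf6 was -0.012 with Xist as a covariate, and C1qb 0.064 with the replicate block.

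The replicate numbers were not taken to pair the arrays, and whether they do was not settled. Deviations of same-numbered arrays correlated at 0.0976, 0.00432 and 0.115 over genes. Control arrays 1 and 3 correlated best with the array of their own number, and control array 2 with another number. Both arrays of low Xist signal carry the number 3. Among other genes not called, 1 left-out array moved Hsp90b1 to -0.15 (Gata6 KO 4), Derl3 to -0.16 (Gata6 KO 3), Asns to 0.24 (Gata6 KO 4) and Creld2 to 0.036 (control 1). With the replicate block, 7 genes of the list rose, 4 fell and 5921 of all genes passed. Low signal limits Slc7a11, Ddit3, Trib3, Mapk8, Derl2, Ppp1r15a, Atf3 and Manf.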
